A study of Mus musculus with 40 samples.

Results

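The 9 genes described here, Ret, Gdnf, Gfra1, Phox2a, Sox10, Ednrb, Edn3, Elavl4 and Th, are expressed in neural crest cells and the enteric and autonomic neurons and glia that come from them, or encode the ligands those cells follow. They were chosen by name, as 9 of the 53647 genes in the 2 count tables, and were compared between the esophagus, the trachea and the larynx. Bulk RNA-seq had been run on 40 libraries, 12 from esophagus, 12 from trachea and 16 from larynx. All mice were wild-type FVB/N, with no transgene and no treatment in any group. Tissue was taken on 5 embryonic days (E) between E10.5 and E18.5 from all 3 organs (36 libraries), and at birth (P0) and in adults of 6 to 8 weeks from the larynx alone (4 libraries). Small pieces were dissected around the forming vocal folds for the larynx, which at E10.5 was the primitive laryngopharynx, and just behind the larynx for the esophagus and trachea, so each piece held every cell type present there. Embryonic tissue was pooled from 10 animals, or from 20 at E15.5, and the number pooled after birth was not stated. Every organ and age had 2 libraries, except for 4 per organ at E15.5, where 2 sets of libraries with different naming were deposited. Those named by a short code (30 libraries) held 3286403 to 26378626 expected counts each. Those named by an index sequence (10 libraries, covering E15.5 and the larynx after birth) held 22553149 to 35831491.

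The enteric nervous system is the network of neurons and glia in the gut wall, built by neural crest cells that leave the hindbrain and migrate into the foregut. GDNF, secreted by gut mesenchyme, binds the coreceptor GFRA1 and activates the receptor tyrosine kinase RET on crest cells, which drives their survival, proliferation and migration, and endothelin 3 acting on the endothelin receptor type B keeps them from differentiating too early. Loss of any of these genes leaves stretches of the gut without ganglia. The same crest cells and their sympathetic and parasympathetic relatives also innervate the trachea and larynx.

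A set of 5 libraries, each apart from the rest or last in 1 of 3 measures, was left out together in an alternative fit, which gained 28 calls among 225 member results and lost none. Of 1194 olfactory receptor genes, normally silent in these tissues, 1108 had counts in the second larynx library at E11.5, 1013 in the second short-code trachea library at E15.5 and 686 in the second short-code larynx library at E15.5, against at most 321 in any other. The first short-code trachea library at E15.5 had the highest share of mitochondrial ribosomal RNA of the 40, at 32.2%, the end of a range that went on to 29.3% in the next library, and the second index library of esophagus at E15.5 had a summed level of squamous epithelium genes of 72954 CPM, a unit in which the counts of each library are scaled to the same total. The 2 sets also differed in mitochondrial ribosomal RNA, with 9.30 to 32.2% in short-code and 0.050 to 0.196% in index libraries, so each organ, age and set was given its own mean in the fit. The labelled organs were checked against their markers over the embryonic ages. Nkx2-1, the respiratory transcription factor, was lower in esophagus than in trachea (log2 difference −4.01, edgeR adjusted p = 0.000329), and the squamous keratins Krt14 (2.52, 0.0161) and Krt5 (2.01, 0.0364) were higher. At E18.5 both esophagus libraries also held thyroid follicle genes, at 3432 and 1911 CPM in sum, with airway and tracheal cartilage genes at 3063 and 1603. Thyroid follicle genes were not particular to the esophagus, as they reached 10089 CPM in an embryonic library of trachea and 2719 in one of larynx.

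Levels are given as normalised read counts, that is RSEM expected counts divided by the median-ratio size factor of the library. A gene was called changed at an adjusted p under 0.05 in edgeR's quasi-likelihood test over all 36495 genes that passed the filter on low values, and all 9 members passed it. Differences between organs "over the embryonic ages" give each of the 5 ages equal weight. The study's methods call the 2 libraries of a group biological replicates, but nothing ties them to separate litters, so p-values measure only the spread between these libraries. In bulk tissue, fewer cells of a type and less RNA per cell cannot be told apart.

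Gdnf was the only member called between esophagus and each airway organ over the embryonic ages, and its upstream sequence is shown for that reason. The ranges of the libraries overlapped, and the call against larynx was lost in some fits with a library left out. The gene lies on the plus strand of chromosome 15 (ENSMUSG00000022144, GRCm39, chr15:7840327-7867060). The RefSeq promoter table held 2 start sites for it, and the 250 bases before each, placed on GRCm39 by exact match, were the following. The first, chr15:7839279-7839528, plus strand, lay outside the annotated gene, and the capitals mark a TATAAA motif at 31 to 26 bases before the start. The second, chr15:7842958-7843207, plus strand, lay wholly in an intron and held none of the 4 motifs searched.
Gdnf, upstream start: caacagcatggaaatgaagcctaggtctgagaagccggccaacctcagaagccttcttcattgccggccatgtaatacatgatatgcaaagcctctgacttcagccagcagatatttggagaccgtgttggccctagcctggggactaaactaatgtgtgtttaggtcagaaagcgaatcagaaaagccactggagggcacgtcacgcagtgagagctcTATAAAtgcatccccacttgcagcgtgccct
Gdnf, intronic start: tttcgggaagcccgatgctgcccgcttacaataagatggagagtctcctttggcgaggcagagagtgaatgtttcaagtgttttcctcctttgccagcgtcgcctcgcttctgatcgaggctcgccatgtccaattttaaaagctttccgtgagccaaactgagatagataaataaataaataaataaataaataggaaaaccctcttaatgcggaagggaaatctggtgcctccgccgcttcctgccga

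The motifs searched on both strands were TATAAA (the TATA box), GGGCGG (the GC box), TGACGTCA (the cAMP response element) and CACGTG (an E-box), none of which contains another. They occurred in 13.6, 35.7, 1.79 and 7.15% of all 32851 promoter windows of 300 bases in the table (RefSeq, GRCm38.p6). The table held 11 windows for 7 of the 9 members, with no entry for Ret or Sox10. Among the other members, the window of Phox2a held 4 matches to GGGCGG, of which the 2 after the start overlap, and that of Th held 1 match to GGGCGG and TGACGTCA at 45 to 38 bases before the start. A match describes the letters only, and the counts here, summed over a gene, do not say which start was used.

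Gdnf, the ligand, was higher in esophagus than in either airway organ. Over the 12 embryonic libraries of each organ its normalised count ran from 25.4 through a median of 72.0 to 210.1 in esophagus, from 12.8 through 22.9 to 70.7 in trachea, and from 4.33 through 31.8 to 63.6 in larynx. The ranges overlapped at their ends, while the esophageal median lay above the highest value of both other organs. Over the embryonic ages the log2 difference was 1.49 ± 0.27 (SE) against trachea, 2.82-fold (adjusted p = 0.00644), where 0.433% of all genes were called. Against larynx it was 1.48 ± 0.28, 2.80-fold (adjusted p = 0.0245), where 0.0849% were called. Gdnf was the only member called in either comparison, and DESeq2 likewise called 1 member in each. Trachea and larynx differed in Gdnf by −0.01 ± 0.29.

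The difference was widest at mid-gestation. At E10.5 Gdnf read 65.7 and 59.2 in esophagus, 45.5 and 70.7 in trachea and 23.6 and 38.1 in larynx, so the first 2 organs overlapped. At E13.5 it read 210.1 and 100.5 in esophagus, 13.8 and 20.7 in trachea and 18.2 and 4.33 in larynx. The esophageal libraries at E13.5 were thus all above every airway library of that age. At E15.5 the index libraries gave 117 and 39.6 in esophagus and 22.3 and 12.8 in trachea, and the short-code libraries 110.3 and 78.4 against 19.5 and 26.9, so that all 4 esophageal values exceeded all 4 tracheal ones. The larynx at E15.5 (38.6, 32.9, 63.6 and 47.5) overlapped the lowest esophageal library. By E18.5 esophagus (36.03 and 58.1) and trachea (53.6 and 37.0) overlapped again, and larynx was at 30.6 and 18.6. In the larynx after birth, Gdnf was at 34.7 and 36.3 at P0 and at 37.8 and 61.3 in the adult.

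At single ages Gdnf passed the test at E15.5 against trachea (log2 difference 2.10 ± 0.45, adjusted p = 0.00384), where 8.79% of all genes were called. The larger differences at E13.5, 3.21 ± 0.66 against trachea (unadjusted p = 5.7e-05) and 3.70 ± 0.68 against larynx (1.12e-05), did not pass after adjustment (adjusted p = 0.234 and 0.0814). Leaving out the lower esophagus library, which by itself raises the difference, gave 4.13 against larynx (adjusted p = 0.0380), with 1 library in that group and its spread taken from the other groups. At that age 0.00274% of genes, 1 gene, was called in each comparison. DESeq2 called Gdnf there against both organs (adjusted p = 0.00692 and 0.000157). At E11.5 the esophagus libraries were 25.4 and 142, the tracheal 18.9 and 23.6 and the laryngeal 23.8 and 61.7, with differences of 1.99 ± 0.63 against trachea (adjusted p = 0.206) and 0.84 against larynx. Differences at E10.5 (0.11 and 1.00 against trachea and larynx) and E18.5 (0.06 and 0.94) did not pass either, nor did 0.95 against larynx at E15.5.

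The call against trachea held when any of the 24 contributing libraries was left out in turn (log2 1.15 to 1.64, adjusted p up to 0.0303). That against larynx held in 13 of 24 such fits (1.14 to 1.77, adjusted p up to 0.123). It was lost without the first or second esophagus or the first larynx library of E10.5, the second esophagus or first larynx of E11.5, the first esophagus or second larynx of E13.5, the second short-code larynx of E15.5, and the second esophagus or either larynx of E18.5. Squamous epithelium genes differed in the same direction as Gdnf, with a median summed level over the embryonic libraries of 1190 CPM in esophagus (43.8 to 72954), 69.3 in trachea (4.27 to 1892) and 359 in larynx (28.7 to 3917). Smooth muscle genes, which are not particular to the gut wall, had medians of 358, 496 and 388, with overlapping ranges. The part of these cells in the Gdnf difference was not tested. Without the 5 libraries that stood apart the difference was 1.60 against trachea (adjusted p = 0.00103) and 1.72 against larynx (0.0268).

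**Figure D1:**
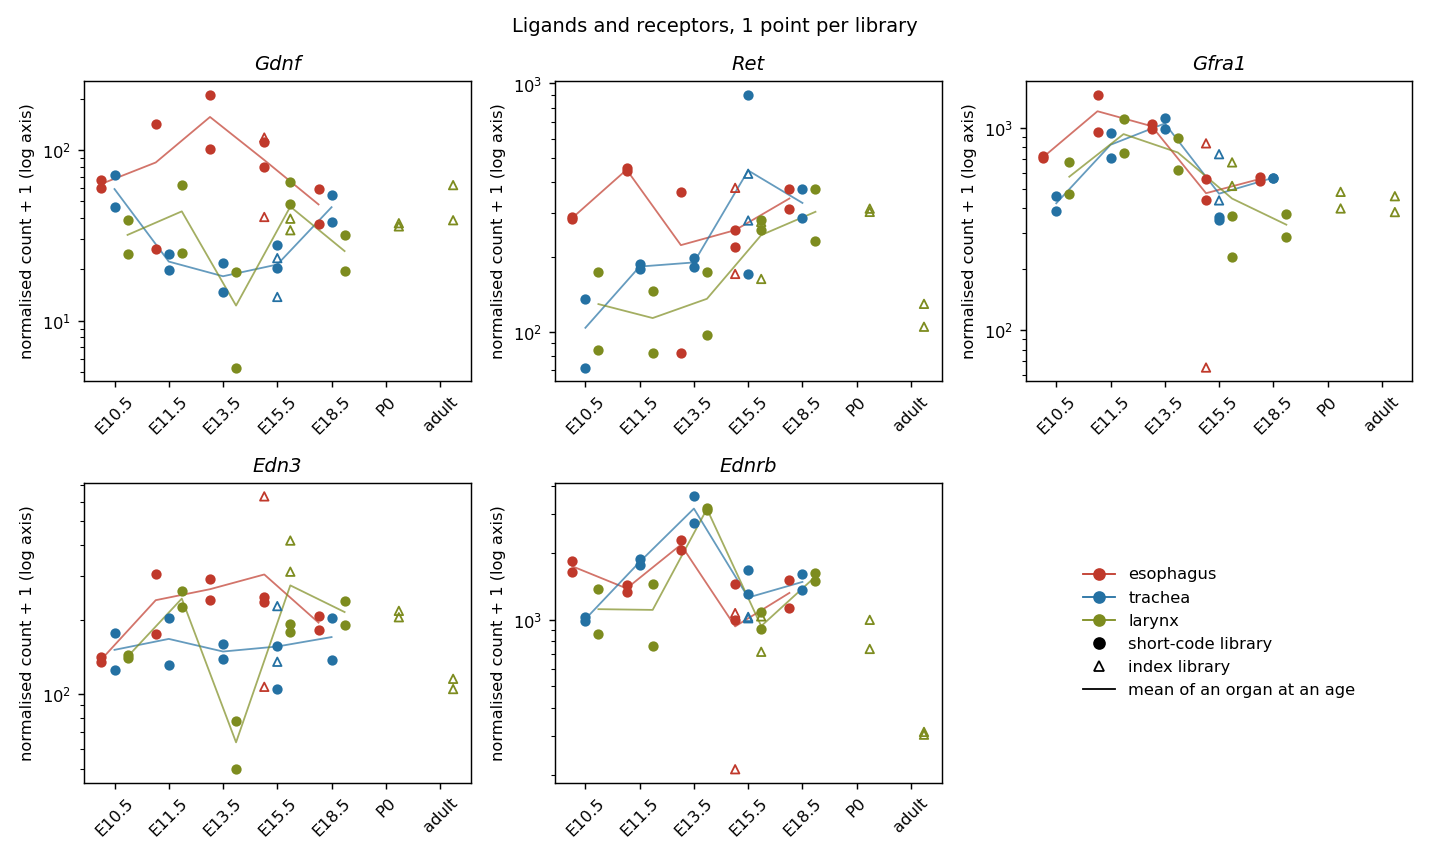
Normalised counts plus 1 (log axis) of Gdnf, Ret, Gfra1, Edn3 and Ednrb by age, with 1 point per library (circles, short-code; triangles, index) and lines through the mean of an organ at each age. The 2 esophagus libraries of E13.5 lie above all airway libraries of that age for Gdnf, and Ednrb peaks at E13.5 in all 3 organs.

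Ret, the receptor tyrosine kinase for GDNF (ENSMUSG00000030110, chr6:118128706-118174769, minus strand), read higher in esophagus than in trachea and larynx at E10.5 and E11.5. The organs overlapped later. At E10.5 it read 283 and 290.5 in esophagus, 70.9 and 135 in trachea and 83.8 and 173 in larynx. At E11.5 the values were 455 and 443 against 186 and 178 and against 81.0 and 145. At both ages the esophageal libraries lay above all those of the other organs. The differences were 1.48 ± 0.59 at E10.5 and 1.299 ± 0.577 at E11.5 against trachea (unadjusted p = 0.0189 and 0.0334), and 1.15 and 1.94 ± 0.62 against larynx, the latter with an unadjusted p of 0.00443 and an adjusted p of 0.117. None passed the test.

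From E13.5 the organs overlapped in Ret. The 2 esophagus libraries of E13.5 differed from each other, at 364 and 80.9, while the trachea had 181 and 198 and the larynx 174 and 96.3. At E18.5 the values were 375 and 312 in esophagus, 374 and 285 in trachea and 376 and 231 in larynx. The highest value of all, 900.3, was in the first short-code trachea library of E15.5, which had the highest share of mitochondrial ribosomal RNA. The other 3 tracheal libraries of that age held 169 to 432, the esophagus 379, 170.2, 219 and 255, and the larynx 276, 162, 257 and 281. Averaged over the embryonic ages Ret was 0.46 ± 0.24 above trachea (adjusted p = 0.871) and 0.81 ± 0.25 above larynx (unadjusted p = 0.00316, adjusted p = 0.425). Ret is also expressed by thyroid C cells. The summed level of their genes Calca and Calcb, which sensory neurons express too, was 0.0906 to 5.58 CPM in the embryonic libraries of esophagus, 0.780 to 31.9 in trachea and 0 to 26.4 in larynx, and the part of these cells in the Ret values was not tested. Without the 5 libraries that stood apart Ret was not called either.

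For Ret a spline over the rank of age in the 16 larynx libraries passed (adjusted p = 0.00187, threshold 0.01), where 29.6% of genes did. Ret was at 303 and 312 at P0 and 129 and 104 in adults. The spline had no term for the set of libraries. P0 and adult larynx had index libraries only, and the embryonic ages other than E15.5 had short-code libraries only. Age and set can therefore not be told apart across birth. The adult step of −1.40 from P0 had an unadjusted p of 0.0233 and did not pass. With the short-code libraries alone, which end at E18.5, the spline did not pass (adjusted p = 0.0473), nor did one with 2 degrees of freedom (0.0418).

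Gfra1, the GPI-anchored coreceptor that presents GDNF to RET (ENSMUSG00000025089, chr19:58223212-58444346, minus strand), was expressed above its partners in all 3 organs and did not separate them. Its median over the 12 embryonic libraries was 714 in esophagus, 564 in trachea and 567 in larynx. At E18.5 the values were 545 and 569, 563 and 566, and 287 and 373, with the larynx lowest. In larynx after birth Gfra1 read 398 and 480.5 at P0 and 381 and 457 in adults, all in index libraries. At E15.5 its larynx means were 593 in index and 297 in short-code libraries, so age and set cannot be told apart across birth. Values ran highest at E11.5 and E13.5, with 1454 and 954, then 984 and 1047, in esophagus, 703 and 940.2, then 984 and 1112, in trachea, and 752 and 1104, then 885 and 620, in larynx. Earlier, at E10.5, it read 704 and 725 in esophagus, 385 and 458 in trachea and 468 and 674 in larynx, and the esophageal libraries were highest. At E13.5 the esophageal values lay within the tracheal range, and both organs were above the 2 laryngeal libraries. The embryonic differences were 0.26 ± 0.23 against trachea and 0.41 ± 0.23 against larynx, neither of which passed.

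A single library decided Gfra1 at E15.5. The esophagus held 835 in the first index library, 64.2 in the second, and 436 and 557 in the short-code pair, whereas trachea had 436, 738, 360.1 and 349 and larynx 514, 672, 365 and 229. The second index library, the one with the very high squamous level, was also the lowest esophageal library of that age for Gdnf, Ret, Edn3, Ednrb, Phox2a and Elavl4. The difference at E15.5 was 0.06 against trachea and 0.17 against larynx. When the first index library was left out, so that the second stood alone for its set with a spread taken from the other groups, the differences turned to −1.35 (adjusted p = 7.8e-05) and −1.23 (0.000257). In the same fit Ednrb was lower than in trachea (−1.28, adjusted p = 4.11e-05) and larynx (−0.88, 0.00231), Elavl4 lower than in trachea (−3.01, 0.00608) and Phox2a lower than in larynx (−3.61, 0.00567). Gfra1 overlaps 2 long noncoding genes on the other strand, and whether counting used strand was not stated.

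On average over the embryonic libraries, the receptors stood above their ligand in level. Per kilobase of exon, the mean normalised count over the 12 embryonic libraries of esophagus was 23.6 ± 14.3 (SD) for Gdnf, 40.8 ± 14.9 for Ret and 116 ± 55 for Gfra1. In trachea it was 8.28 ± 4.84, 38.1 ± 29.6 and 99.4 ± 41.2, and in larynx 9.10 ± 4.82, 26.3 ± 12.3 and 90.9 ± 40.5. The order Gfra1, Ret, Gdnf of these means was the same in the 3 organs. Intervals of 1 SD around neighbours in this order overlapped for Ret and Gdnf in esophagus and trachea, and for Gfra1 and Ret in trachea. The order of means did not hold at every age. At E13.5 in esophagus Gdnf read 210.1 and 100.5, and Ret 364 and 80.9. With 3.678 kb of exon for Gdnf and 7.408 for Ret, Gdnf was above Ret per kilobase in both libraries.

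Edn3, the endothelin ligand (ENSMUSG00000027524, chr2:174602088-174625835, plus strand), dipped in the larynx at E13.5. It read 143 and 139 in larynx at E10.5, 224 and 261 at E11.5, 76.9 and 48.7 at E13.5 and 238 and 189.8 at E18.5. In esophagus the same ages gave 134 and 140.2, 173 and 304, 291 and 238, and 206 and 181. At E13.5 both laryngeal libraries were thus below all the other embryonic libraries, and the trachea, at 137 and 158, lay between. The rise from E13.5 to E18.5 in larynx was 1.75 ± 0.48 (adjusted p = 0.0195) and was the only member called in that step there, where 9.43% of genes were called. The call was lost when any of its 4 libraries was left out (adjusted p 0.0514 to 0.223). The preceding step from E10.5 was −1.15 ± 0.48 in larynx (adjusted p = 0.114) and 0.95 ± 0.46 in esophagus (0.236), and with short-code libraries alone both were called (−1.12, 0.0129, and 0.97, 0.0316), as they were without the 5 libraries.

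The esophagus was above the larynx in Edn3 by 2.06 ± 0.48 at E13.5 (unadjusted p = 0.000241, adjusted p = 0.215). DESeq2 called this difference (adjusted p = 0.0123), as did the fit without the 5 libraries that stood apart (2.05, 0.00502). Against trachea at E15.5, with esophagus at 629.7, 106, 245 and 234 and trachea at 226, 134, 104 and 155.2, the difference of 0.96 ± 0.33 did not pass (adjusted p = 0.0668). There too DESeq2 called it (0.0299). The fits without the 5 libraries (1.10) and without only the second index library of esophagus (1.35) called it as well. That library was the lowest esophageal one, at 106, so leaving it out by itself raises the difference. The first index library, at 629.7, then stood alone for its set, with a spread taken from the other groups. Across ages Edn3 was 0.48 ± 0.20 above trachea (adjusted p = 0.544) and 0.41 ± 0.20 above larynx. The first was called at 0.51 without the 5 libraries and at 0.56 without the second index library alone, with the same limit. In the adult larynx it was at 104 and 114, from 216 and 204 at P0, a step that did not pass.

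Ednrb, the G protein-coupled endothelin receptor (ENSMUSG00000022122, chr14:104052053-104081900, minus strand), had the highest level per length of the 9 members, with a mean normalised count per kilobase of 314 ± 121 in esophagus, 370 ± 175 in trachea and 326 ± 187 in larynx. It is also expressed by melanocyte precursors and by vascular and mesenchymal cells. At E10.5 it read 1645 and 1828 in esophagus, 1024 and 983 in trachea and 859 and 1367 in larynx, the esophagus being highest. At E13.5 the order was turned, with 2064 and 2281 in esophagus against 2734 and 3588 in trachea and 3127 and 3174 in larynx. By E18.5 the organs overlapped, at 1503 and 1131, 1354 and 1599, and 1495 and 1628. Melanocyte genes had embryonic medians of 42.5, 40.8 and 37.9 CPM in esophagus, trachea and larynx, with overlapping ranges, and their part in the Ednrb values was not tested.

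Ednrb rose from E10.5 to E13.5 in trachea by 1.65 ± 0.41 (adjusted p = 0.0103) and in larynx by 1.501 ± 0.412 (0.0128), but the step in esophagus was 0.32 ± 0.40 (0.774). The difference between the steps of esophagus and trachea was −1.33 (unadjusted p = 0.0284) and did not pass. The tracheal call was lost without the first or second library of E10.5 or the second of E13.5 (adjusted p = 0.0769, 0.102 and 0.0881), and the laryngeal call without the first of E10.5 or the second of E13.5 (0.153 and 0.0617). In the larynx Ednrb fell (log2 difference −1.50 ± 0.41) from P0 (736 and 996) to adults (302 and 311; adjusted p = 0.0293), the only member called in that step, where 6.01% of genes were called. That call was lost without any of its 4 libraries (adjusted p 0.073 to 0.246). Averaged over ages Ednrb did not separate the organs, with −0.16 ± 0.17 against trachea and 0.02 ± 0.17 against larynx.

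Sox10, the transcription factor of migrating crest and of glia (ENSMUSG00000033006, chr15:79039108-79049469, minus strand), did not pass the test between organs. Its embryonic normalised counts were 54.2 to 185 in esophagus with a median of 69.9, 21.02 to 101 in trachea with 78.8, and 30.3 to 198 in larynx with 85.2. These ranges overlapped widely. At E10.5 it read 59.8 and 109 in esophagus, 21.02 and 84.6 in trachea and 53.1 and 106 in larynx, and at E18.5 77.0 and 78.0, 81.0 and 57.5, and 87.5 and 104. The ranges of the organs overlapped at E10.5, and at E18.5 those of esophagus and trachea did, with the larynx above both. At E11.5 the trachea (51.1 and 56.8) lay below esophagus (89.9 to 116) and larynx (95.2 to 98.8). The esophagus differed by 0.28 ± 0.22 from trachea and by −0.01 ± 0.22 from larynx. In larynx Sox10 read 204 and 161 at P0 and 152 and 189 in adults, and no step of Sox10 passed the test. The values after birth lay above all of its embryonic larynx values other than the 198 of an index library at E15.5. All libraries after birth were index libraries, and at E15.5 the larynx means were 141 in index and 77.7 in short-code libraries. Age and set can therefore not be told apart across birth. Sox10 is a gene of glia in general, so it does not tell enteric from other peripheral glia.

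Phox2a, the homeobox factor of autonomic neurons (ENSMUSG00000007946, chr7:101467514-101471933, plus strand), was low throughout, with normalised counts from 0 to 74.9. The gene overlaps Inppl1 on the other strand. At E10.5 it read 25.5 and 28.2 in esophagus, 11.4 and 11.8 in trachea and 9.45 and 19.9 in larynx. At E13.5 it read 17.2 and 2.67 in esophagus, 49.1 and 51.7 in trachea and 34.9 and 36.8 in larynx. The esophagus was thus highest at the first age and lowest at the second. The difference against trachea at E13.5 was −2.32 ± 1.01 (unadjusted p = 0.0304), that against larynx −1.83 ± 1.02, and neither passed. The second esophagus library of that age was low for Ret as well. Over the embryonic ages Phox2a differed by −0.10 ± 0.48 from trachea and −0.13 ± 0.52 from larynx. The genes most like it over the 36 embryonic libraries were Chrnb4, a nicotinic receptor subunit of autonomic ganglia (Pearson r = 0.786), and Slc10a4, a vesicle protein of cholinergic and monoaminergic neurons (0.781).

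**Figure D2:**
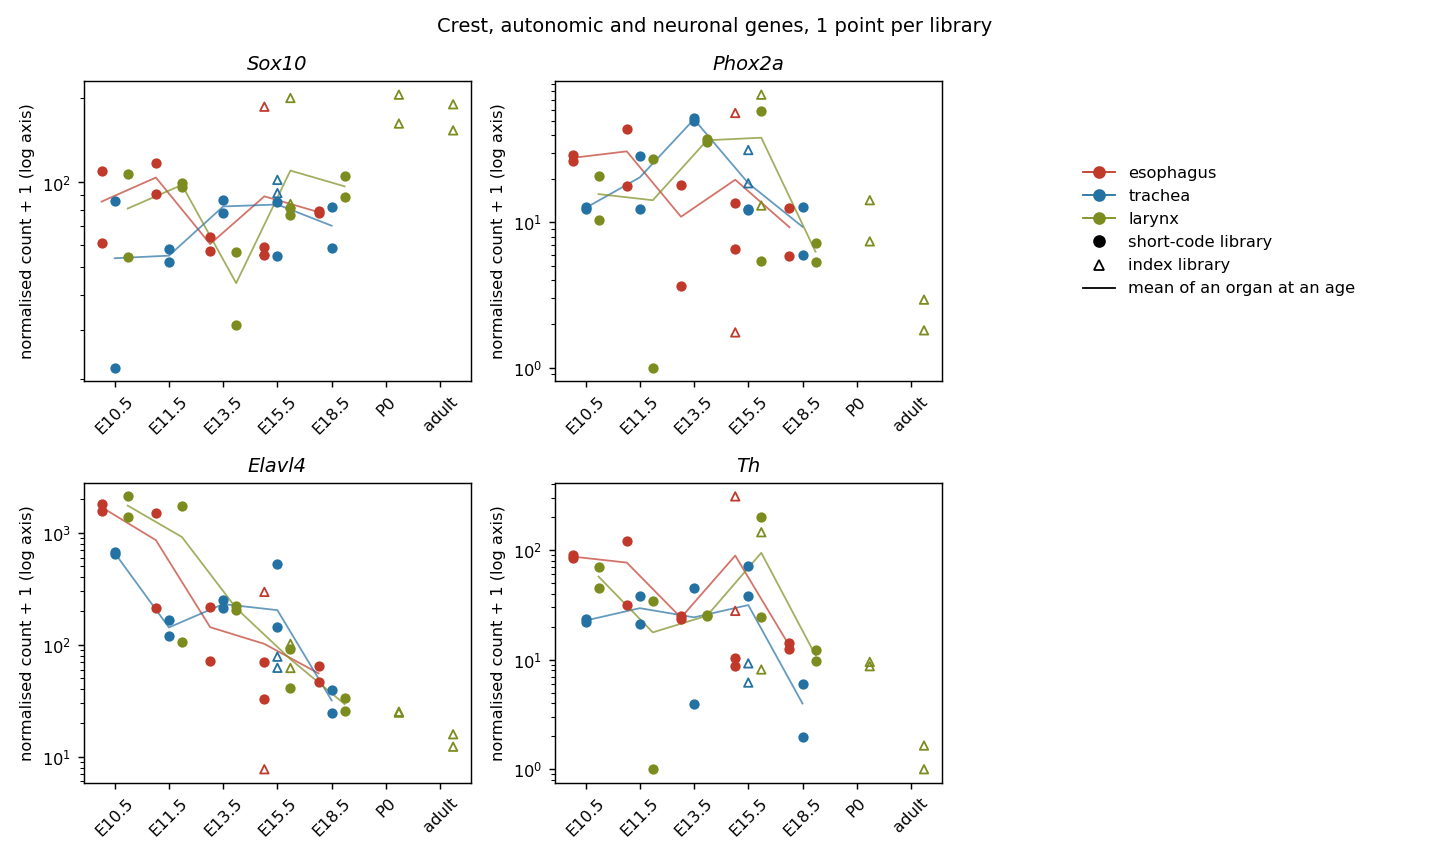
Normalised counts plus 1 (log axis) of Sox10, Phox2a, Elavl4 and Th by age, with 1 point per library (circles, short-code; triangles, index) and lines through organ means. Elavl4 descends from up to 2110.5 at E10.5 to at most 38.0 in 4 of the 6 libraries of E18.5, while Sox10 stays between 21.02 and 204 throughout.

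Elavl4, which encodes the neuronal RNA-binding protein HuD (ENSMUSG00000028546, chr4:110060810-110209142, minus strand), had the largest step with age that passed the test among the members. At E10.5 it read 1558 and 1818 in esophagus, 643 and 676 in trachea and 1382 and 2110.5 in larynx. At E13.5 it read 214 and 70.3, 249 and 209.7, and 202 and 219.5, all below every value of E10.5. It fell in esophagus (log2 difference −3.57 ± 1.03, adjusted p = 0.0287) and larynx (−3.05 ± 1.01, 0.0398), and the step of −1.52 ± 0.96 in trachea did not pass (0.398). Whether the steps differed between organs was tested and did not pass. Both calls were lost when any of their 4 libraries was left out (adjusted p 0.0837 to 0.232 in esophagus, 0.061 to 0.209 in larynx). By E18.5 Elavl4 was at 45.9 and 63.0, 23.7 and 38.0, and 32.1 and 24.8, and in the adult larynx at 11.3 and 14.9. The spline in larynx passed (adjusted p = 6.17e-07), but those in esophagus (0.0216) and trachea (0.0212) did so only with the short-code libraries alone (0.0014 and 0.00164).

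Genes of the central nervous system moved with Elavl4. The summed level of 12 such genes, among them Otx2, En2, Pax6 and Lhx1, was 131 and 160.5 CPM in esophagus at E10.5, 73.3 and 56.0 in trachea and 279 and 182 in larynx. At E11.5 it was 82.0 and 4.30 in esophagus and 4.87 and 75.7 in larynx, and Elavl4 in those libraries was 1504 and 210.3, and 105 and 1725. At that age, the library of each pair that held the brain genes was the one that held Elavl4. Of the larynx pair, the first was the shallowest library, at 3286403 counts, and the second had stood apart by its olfactory receptor genes. From E13.5 the sum was at most 4.43 in all libraries other than the short-code tracheal pair of E15.5 (11.54 and 5.63), of which the first had Elavl4 at 529. Both libraries of that tracheal pair had stood apart as well. Of the 12 genes, 9 fell from E10.5 to E13.5 in esophagus, 8 in trachea and 12 in larynx, and many of them were at or near 0 from E13.5 on. The part of central nervous tissue in the Elavl4 values was not tested. The genes most like Elavl4 over the 36 embryonic libraries, by Pearson correlation of log2 normalised counts, were Myt1 (0.977), Crmp1 (0.963) and Elavl2 (0.952), out of 16567 genes compared.

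**Figure D3:**
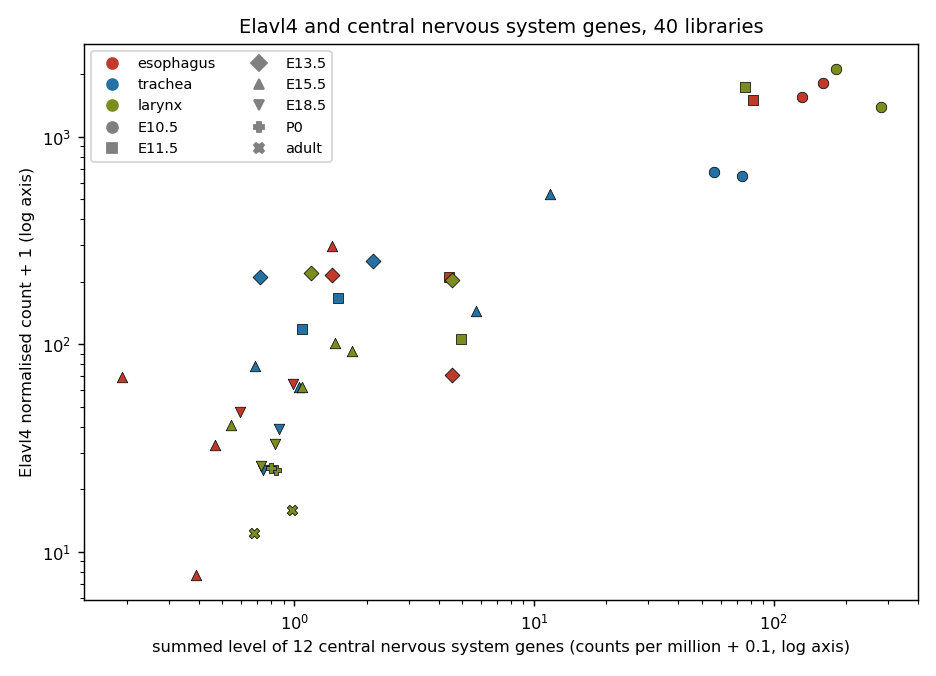
Elavl4 normalised count plus 1 against the summed level of 12 central nervous system genes plus 0.1, in CPM (both axes log), with 1 point for each of the 40 libraries, coloured by organ and shaped by age. All 8 libraries with a sum of at least 56.0 CPM hold Elavl4 at 643 or more.

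Between organs Elavl4 was 2.60 ± 1.00 higher in esophagus than in trachea at E11.5 (unadjusted p = 0.0152, adjusted p = 0.398), where 0.422% of genes were called, and 0.66 ± 0.42 over the embryonic ages. Without the 5 libraries that stood apart both were called (2.61, adjusted p = 0.0127, and 0.98, 0.0394). Against larynx the embryonic difference was 0.10 ± 0.42.

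Th, tyrosine hydroxylase, the rate-limiting enzyme of catecholamine synthesis and a mark of sympathetic neurons and of passing enteric precursors (ENSMUSG00000000214, chr7:142443466-142484865, minus strand), was low and scattered. It read 83.3 and 89.2 in esophagus, 21.02 and 22.5 in trachea and 68.5 and 44.1 in larynx at E10.5. At E18.5 it read 13.1 and 11.6, 4.98 and 0.974, and 8.75 and 11.2. Both esophageal libraries lay above all other libraries of their age at these 2 ages only. At E11.5 the esophageal mean of 75.9 was also above those of trachea (28.5) and larynx (16.8), but the libraries overlapped. The step from P0 to adult in larynx was −4.13 ± 2.25 and did not pass (adjusted p = 0.398). Over the embryonic ages Th was 1.26 ± 0.55 above trachea (unadjusted p = 0.0288, adjusted p = 0.618) and 0.27 ± 0.52 above larynx.

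At E15.5 the 4 libraries of an organ disagreed in Th. The esophagus held 26.9 and 308 in the index pair and 9.35 and 7.74 in the short-code pair, and the larynx 145 and 7.13, and 23.7 and 199. In the 2 high laryngeal libraries Dbh, which converts dopamine to noradrenaline, was high as well, at 228 and 267. In the high esophageal library, which had stood apart by its squamous genes, Dbh was 1.5, Ddc 20.9 and Phox2a 0.747, so none of these 3 was high with Th. The level was 0 in 2 of the 40 libraries, the first larynx library of E11.5, the shallowest at 3286403 counts, and the first adult larynx library. From E15.5 to P0 in the index libraries of larynx Th changed by −3.21 (unadjusted p = 0.00797, adjusted p = 0.149) and Phox2a by −2.10 (unadjusted p = 0.0356). None of the members was called in that step by edgeR or DESeq2, with 2 at an unadjusted p under 0.05 and 1.77% of all genes called.

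Among the members themselves, the pairs most alike over the 36 embryonic libraries were Gfra1 with Ednrb (Pearson r of log2 normalised counts 0.659), Gdnf with Edn3 (0.639), Edn3 with Sox10 (0.600) and Ret with Sox10 (0.501). Gdnf with Ret gave 0.193 and Gdnf with Gfra1 0.046. Of 16567 genes, Edn3 was the most like Gdnf, followed by Wnt3a (0.603) and Fermt1 (0.597), and Akap12 (0.937) and Npr3 (0.857) were the most like Ednrb. The libraries share their ages and organs, so these are descriptions of shared pattern only.

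Of the 9 members, which were chosen by name with results known, 7 had a positive log2 difference against trachea over the embryonic ages, with a median of 0.46, while over all tested genes 46.8% were positive with a median of −0.02. Against larynx the members' median was 0.27 and that of all genes −0.07. At single ages the count of positive members varied. Against trachea it went from 8 at E10.5 and E11.5 to 3 at E13.5 (median −0.16) and 6 at E15.5 (0.06). Over all genes 35.1, 44.1, 38.9 and 40.1% were positive at these ages. Against larynx it went from 7 members at E10.5 and E11.5 to 5 at E13.5 and at E15.5 (median 0.07 at E15.5). There 38.8, 31.3, 38.5 and 44.3% of all genes were positive. Over the embryonic ages 1 member was called against each organ. Against trachea Gdnf, Th and Edn3 had an unadjusted p under 0.05, and against larynx Gdnf, Ret and Edn3. Among all genes 6.53 and 4.73% did. Between trachea and larynx none was called by edgeR or by DESeq2 and none had an unadjusted p under 0.05, where 0.466% of genes were called. The scale of all genes was shifted in 2 comparisons at single ages, with a median of −0.24 for esophagus against larynx at E11.5 and −0.15 against trachea at E15.5. Gdnf at E15.5 lay well outside that shift.

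**Figure D4:**
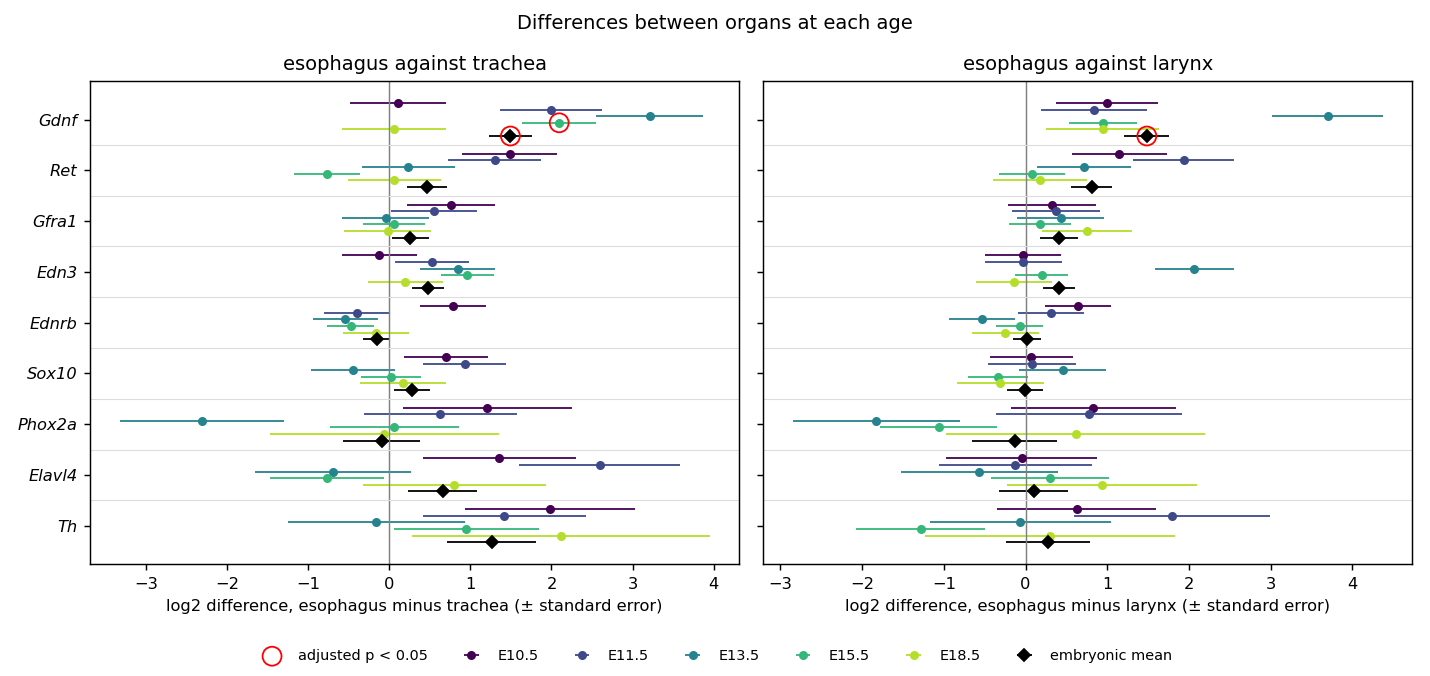
Log2 difference between esophagus and trachea (left) and esophagus and larynx (right) with its standard error for each member at each age and over the embryonic ages (diamonds), red rings marking an adjusted p under 0.05. The 3 rings are all on Gdnf, at 1.49, 2.10 and 1.48.

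At the remaining single ages no member was called by edgeR or DESeq2. Against trachea and larynx, 0.0219 and 0.26% of genes were called at E10.5, and 1 and 0 members had an unadjusted p under 0.05, as did 2.88 and 2.86% of all genes. At E11.5 the members with an unadjusted p under 0.05 were 3 against trachea and 1 against larynx, beside 7.38 and 15.7% of all genes, and 0.811% were called against larynx. At E15.5 against larynx it was 1 member, beside 14.2% of all genes, with 2.72% called. At E18.5 it was 0 in both comparisons, beside 2.51 and 4.58% of all genes, with 0.00274 and 0.011% called.

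The steps with age gave 4 calls among the members from E10.5 to E13.5, 1 in esophagus, 1 in trachea and 2 in larynx, where 9.12, 10.3 and 15.47% of all genes were called. From E13.5 to E18.5, where 11 and 11.9% of genes were called in esophagus and trachea, edgeR called none of the members in either. DESeq2 called Gdnf in esophagus (adjusted p = 0.0408) and Ednrb and Elavl4 in trachea (0.0398 and 0.0203), and 1 and 4 members had an unadjusted p under 0.05, beside 20.7 and 22.3% of all genes. Of the splines, 2 members passed in larynx, and none in esophagus or trachea, where 8.14 and 13.54% of genes did. With short-code libraries alone Gfra1 (adjusted p = 0.00589), Elavl4 and Th (0.00492) passed in esophagus, where 5157 of 26833 genes did, and Elavl4 alone in each of the other organs. With 2 degrees of freedom Ednrb (0.00647), Phox2a (0.00711) and Th (0.00547) passed in larynx beside Elavl4, and again none in esophagus or trachea. Tests of whether a step differed between organs called no member. Such differences from E10.5 to E13.5 were called for 0 and 0.11% of all genes against trachea and larynx, and for 0 and 0.00548% from E13.5 to E18.5. For those against trachea, where edgeR called no gene, 838 and 829 genes had an unadjusted p under 0.05 and DESeq2 called 18 and 23.

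Of the other GDNF family ligands and coreceptors, edgeR called 0 of 6 between esophagus and trachea or larynx over the embryonic ages (list medians −0.04 and 0.41), where 0.433 and 0.0849% of all genes were called, so that a count of 0 says little for a list of this size. At an unadjusted p under 0.05 it was 2 in each. From E10.5 to E13.5 the neurturin coreceptor Gfra2 rose in all 3 organs, by 1.73, 2.46 and 2.05 in esophagus, trachea and larynx. The artemin coreceptor Gfra3 rose in trachea (3.16, adjusted p = 0.000105) and larynx (3.05, 7.09e-05). At E15.5 Gfra3 was lower in esophagus than in trachea (−1.33, adjusted p = 0.00706). All 3 organs held libraries of E15.5 that stood apart. Calls of listed genes at that age, here and below, were not repeated without those libraries. Of the 5 other endothelin genes 0 were called in the same comparisons, with 1 in each at an unadjusted p under 0.05, and Edn2 was higher in esophagus than in trachea at E15.5 (2.15, adjusted p = 0.0138). Edn1, the endothelin of endothelium and epithelium, rose from E10.5 to E13.5 in esophagus (1.45, adjusted p = 0.0492) and larynx (3.57, 1.86e-05), together with Ece1, the enzyme that matures endothelins (0.71 and 1.41). In adult larynx both were above P0 (1.93 and 0.74).

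Of 9 other autonomic transcription factors edgeR called 0 between organs over the embryonic ages, beside shares of all genes of 0.433, 0.0849 and 0.466%, and 0 and 1 had an unadjusted p under 0.05 against trachea and larynx. Insm1, a factor of newborn neurons and endocrine cells, fell from E10.5 to E13.5 in esophagus, trachea and larynx (log2 differences −4.59, −3.00 and −4.55). From E13.5 to E18.5 Hand2 fell in trachea (−3.59, adjusted p = 0.0113) and larynx (−3.40, 0.0144). At E15.5 the esophagus was lower than trachea in Gata3 (−1.64) and Gata2 (−1.51), and lower than larynx in Gata3 (−1.95). These factors are also used outside the nervous system.

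Of 11 crest and glial genes 1 was called over the embryonic ages, Tfap2a, higher in esophagus than in trachea by 1.77 (adjusted p = 0.0109). Tfap2a is also a factor of squamous epithelium, whose genes were higher in the same libraries, and their part was not tested. S100b, a calcium-binding protein of glia and of cartilage, rose from mean normalised counts of 3.71, 1.51 and 2.75 at E10.5 by 4.15, 4.00 and 2.94 to E13.5 and again to E18.5 by 2.01, 4.57 and 3.41 in esophagus, trachea and larynx. At E15.5 it was lower in esophagus than in trachea (−2.16, adjusted p = 9.54e-05) and larynx (−1.80, 0.00240), and airway and cartilage genes had embryonic medians of 272, 1326 and 1051 CPM in esophagus, trachea and larynx.

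Lists of other nerve genes held no gene called by edgeR between esophagus and either airway organ over the embryonic ages, where 0.433 and 0.0849% of all genes were called. The lists had 11 general neuronal, 8 noradrenergic, 8 sensory neuron and 6 Schwann cell and myelin genes, of which 0, 0, 2 and 0 had an unadjusted p under 0.05 against trachea and 1, 1, 0 and 1 against larynx. The list medians were 0.43 against trachea and near 0 against larynx for the general neuronal genes, 0.14 and −0.03 for the noradrenergic, 0.90 and 0.01 for the sensory neuron and 0.02 and near 0 for the Schwann cell genes, and the medians of all genes were −0.02 and −0.07. In larynx, Elavl3 (−4.42), Dcx (−3.94) and Tubb3 (−3.81), all genes of young neurons, fell from E10.5 to E13.5 with Elavl4.

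Of 9 transmitter genes of enteric neurons, 2 rose and 0 fell from E13.5 to E18.5 in esophagus, 2 rose and 2 fell in trachea, and 4 rose and 1 fell in larynx, where 11, 11.9 and 9.43% of all genes were called. The list medians of that step were 1.13, −0.24 and −0.33. Nos1, which makes nitric oxide in inhibitory motor neurons and is also present in skeletal muscle, rose from E13.5 to E18.5 by 4.78, 6.13 and 5.43 in esophagus, trachea and larynx. Vip, the neuropeptide that works beside it, rose in esophagus (4.25, adjusted p = 0.00429) and larynx (3.70, 0.0213). Calb2, a calcium-binding protein of some enteric neurons, fell in trachea (−3.86, adjusted p = 0.00318) and larynx (−3.47, 0.0244). At E15.5 both were higher in esophagus than in trachea, Vip by 2.21 (adjusted p = 0.0109) and Nos1 by 1.82 (0.00204). Over the embryonic ages 2 of the 9 genes of that list were called, both lower in trachea than in larynx, Nos1 (−1.31, adjusted p = 0.0113) and Tac1, which was at 0 in both trachea libraries of E11.5. The noradrenergic genes Npy (−2.50) and Chga (−4.63) were lower in esophagus than in trachea at E15.5, and Dbh was lower than in larynx (−4.02, adjusted p = 0.0165). These calls at E15.5, and those of Vip and Nos1, were not repeated without the libraries of that age that stood apart.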

How the data were processed

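Wild-type FVB/N tissue was sequenced as poly-A RNA-seq (TruSeq). Per the study's methods, the authors aligned reads to GRCm39 with Bowtie2 (2.4.2) and counted with RSEM (1.3.3) after FastQC (011.5). The deposited values are expected counts per gene, where RSEM shares out reads that match several genes; strandedness was not stated. Ensembl IDs were mapped to mouse symbols with the GRCm39 annotation (52610 of 53647 matched). Groups came from the labels, and no column lacked a sample.

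Expected counts were rounded, scaled by median-ratio (RLE) factors and kept where the normalised count reached 1 in 2 or more libraries. In R 4.3.3, edgeR 4.0.16 quasi-likelihood tests (negative binomial dispersion 0.127, 20 residual degrees of freedom) were fitted to all 40 libraries with 1 mean for each of 20 combinations of organ, age and set of libraries, with Benjamini-Hochberg adjustment over all tested genes. Time courses used splines with 3 degrees of freedom over age rank within an organ, called at an adjusted p of at most 0.01. The splines had no term for the set of libraries. Totals ranged from 3286403 to 35831491; counts of 0 to 4, as in the lowest libraries for Phox2a, Th and Gdnf, carry large counting error. Scripts were tested on simulated data. Alternatives were TMM factors, DESeq2 1.42.0, no filter, a filter at 10, 1 mean per organ and age, each set alone, a replicate block, each library left out, the 5 libraries that stood apart left out, and, chosen after seeing the data, gene-wise dispersions. Replicate numbers did not pair libraries across groups (190 pairs of groups, median correlation of deviations 0.00104, 13.2% over 0.1).

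The members and lists were chosen with earlier results of these data known. Other genes are named by rule: per list and comparison, up to 4 called genes with the largest change, and per member up to 3 genes with the highest correlation of log2(normalised count + 1) among genes with a mean of at least 20. Some listed genes are counted but not reported here by name. Values of Dbh and Ddc in single libraries were chosen after their values were seen. Upstream sequences came from a RefSeq table. No sequence is given for members whose window overlaps annotated exons.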

Additional observations from a re-analysis of the deposited data

Results flagged for a closer look

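For 3 members the step between ages went up in every library of one organ and down in every library of another. The test of the difference between steps did not pass after adjustment. How many of all genes show such opposite steps was not counted. From E10.5 to E13.5, 2.30 and 3.94% of all genes had an unadjusted p under 0.05 in this test against trachea and larynx. From E13.5 to E18.5 the shares were 2.27 and 4.51%. From E10.5 to E13.5 the step of Gdnf in esophagus was 3.10 ± 0.89 above that in trachea on the log2 scale (unadjusted p = 0.00178) and 2.70 ± 0.91 above that in larynx (0.00663, adjusted p = 0.624). From E13.5 to E18.5 it turned, at −3.15 ± 0.92 (unadjusted p = 0.00213) and −2.75 ± 0.97 (0.0086, adjusted p = 0.742). Edn3 showed the same turn against larynx, at 2.10 ± 0.67 (unadjusted p = 0.00416) and then −2.21 ± 0.67 (0.00285). Without the 5 libraries that stood apart both Edn3 differences were called (2.08, adjusted p = 0.033, and −2.20, 0.0252). Phox2a differed the other way from E10.5 to E13.5, by −3.52 ± 1.45 against trachea (unadjusted p = 0.0223) and −2.65 ± 1.44 against larynx (0.0759). All of these use the 2 libraries of each organ at E13.5.

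Among the 4 libraries per organ at E15.5, 3 of 27 sets of member values had a library far from the others. The nominal rate of the test used is about 1 in 20. The share over all genes in these libraries was not counted, so the 3 are not shown to be unusual. Sox10 was 185 in the first index library of esophagus and 198 in the first index library of larynx, against at most 58.1 and 82.9 in the other libraries of those sets. Th was 308 in the second index library of esophagus, against at most 26.9.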

How the results depend on the processing

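Over the alternatives and left-out libraries, 3624 of 3726 member values kept their side of the threshold, 41 lost a call, 58 gained one and 3 reversed; 184 of the 3624 changed sign with no call in either fit. Gdnf remained called against trachea and larynx over the embryonic ages with TMM factors, DESeq2, either filter, gene-wise dispersions, 1 mean per organ and age, and without the 5 libraries that stood apart. It was lost against larynx with short-code libraries alone (1.44, adjusted p = 0.0648) and, with index libraries alone, which cover E15.5 only, against both (2.10, 0.148, and 1.07, 0.433). With each library left out it was 1.15 to 1.64 against trachea and 1.14 to 1.77 against larynx. The cause of these losses was not tested beyond the smaller number of libraries. The replicate block changed no call (Gdnf 1.496, adjusted p = 0.00827, and 1.48, 0.0372), and the libraries share only a number.

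Genes called in these 2 comparisons numbered 158 and 31, but 656 and 229 with DESeq2, 69 and 20 with 1 mean per organ and age, 103 and 18 with index libraries and 1169 and 71 without the 5 libraries. Leaving out each library gave 82 to 1415 and 12 to 571.

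Members called over the embryonic ages were 1 in each, but 3 and 1 without the 5 libraries, 0 against larynx with short-code and 0 in both with index libraries. At E11.5 against trachea the count was 1 without the 5 libraries. At E13.5 it was 1 against trachea and 2 against larynx with DESeq2, 1 against larynx with no filter, and 2 with short-code libraries or without the 5. At E15.5 against trachea it was 2 with DESeq2, the stricter filter or without the 5, and 0 with either set alone. From E10.5 to E13.5 in esophagus, trachea and larynx it was 2 in trachea with DESeq2, 2, 2 and 3 in the 3 organs with short-code libraries, 2, 4 and 3 without the 5, and 0 in esophagus and 1 in larynx with 1 mean per organ and age. From E13.5 to E18.5 it was 1, 2 and 2 with DESeq2, 1, 4 and 3 with short-code libraries and 3, 4 and 5 without the 5. Differences between the steps of esophagus and larynx gave 1 each without the 5. In larynx after birth it was 2 from E15.5 to P0 and 3 from P0 to adult without the 5, and 0 from P0 to adult with 1 mean per organ and age or index libraries.

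The 3 reversals came without the first index library of esophagus at E15.5: Gfra1 was −1.35 against trachea and −1.23 against larynx, and Edn3 −0.70 against larynx (ranges over left-out libraries −1.35 to 0.50, −1.23 to 0.62 and −0.70 to 0.59). Depth limits Phox2a and Th, which had counts of 0 in 1 and 2 libraries.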
